A study of Homo sapiens with 6 samples.

Results

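The replication-dependent histone genes encode the histones that package newly copied DNA. They were taken here as the protein-coding genes named H1-1 to H1-6 or H2AC, H2BC, H3C or H4C followed by a number, or by the older HIST names, and 69 of the 62710 genes in the deposited table met this rule. By class they were 6 genes for linker histone H1, 17 for H2A, 18 for H2B, 13 for H3 and 15 for H4. Of the 69 genes, 55 lie on chromosome 6 between positions 25723397 and 27893891 (GRCh38), 13 on chromosome 1 and 1 on chromosome 12.

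The RNA came from HCT116, an established human colon cancer cell line. The cells had been infected with lentivirus carrying either a scrambled control shRNA (sh-NC) or an shRNA against IGF2BP3 (sh-IGF2BP3), an RNA-binding protein that reads N6-methyladenosine on mRNA, and stable lines had been selected with puromycin. Both arms therefore carried a lentiviral insertion and had passed puromycin selection, 1 shRNA sequence represented the knockdown, and 3 libraries were deposited for each arm. The sources used here do not say whether the 3 libraries of an arm came from separate cultures, so the p-values measure the spread between these libraries, which may be technical.

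Core histones H2A, H2B, H3 and H4 form the octamer around which DNA is wound, and H1 binds the DNA between octamers. Replication-dependent histone genes are transcribed in S phase from clusters served by NPAT, and their mRNAs end in a stem-loop in place of a poly(A) tail. The stem-loop is bound by SLBP, the U7 snRNP with LSM10 and LSM11 guides the cut behind it, and the mRNAs are degraded when replication stops. Replication-independent histone genes, such as H3-3B, yield ordinary polyadenylated mRNAs through the whole cell cycle.

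The stem-loop was searched for because it sets these mRNAs apart from others. The motif was GGNNNNTNTNNNNNCC on the coding strand, with 6 base pairs (G-T pairs allowed) closing a loop of 4 bases, within 100 bases after the stop codon in GENCODE 29 transcripts (GRCh38). Of 33 members with at least 30 annotated bases after the stop codon, 29 held it and H1-4, H1-6, H2BC11 and H4C3 did not, whereas 46 of 18989 coding genes of all kinds did so (0.242%). Examples are shown with the 16 bases of the stem-loop in capitals, 5′ to 3′.
H4C5, chr6:26205001-26205016, plus strand: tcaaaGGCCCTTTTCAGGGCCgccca
H4C8, chr6:26285131-26285146, minus strand: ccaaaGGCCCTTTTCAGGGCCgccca
H2AC25, chr1:228457369-228457384, minus strand: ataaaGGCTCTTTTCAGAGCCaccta
H2BC21, chr1:149886188-149886203, minus strand: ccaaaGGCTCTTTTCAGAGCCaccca
H2BC5, chr6:26158587-26158602, plus strand: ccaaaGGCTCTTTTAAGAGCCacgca
H3C6, chr6:26225596-26225611, plus strand: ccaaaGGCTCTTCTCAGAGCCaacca
H2AC11, chr6:27133515-27133530, plus strand: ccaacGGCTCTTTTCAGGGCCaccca

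The sequence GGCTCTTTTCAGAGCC was shared by 15 genes, of which 4 encode H2A, 8 H2B and 3 H3. Each of the 8 located H4 stem-loops instead began with GGCCC, 5 as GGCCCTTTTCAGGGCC and 3 as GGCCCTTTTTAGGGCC. H2AX, listed here with the replication-independent genes, was among the 17 other coding genes with the motif. It therefore shares the feature that sets the members apart. The stem-loop of H4C1, H2BC17 and H2BC12 was not located, since their GENCODE 29 transcripts hold no such window.

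Promoters differed by class as well. In RefSeq promoters (GRCh38.p14), the 250 bases before the start site were searched on both strands for the octamer ATTTGCAT (the site of the factor encoded by POU2F1), for CCAAT and for TATAAA, which may overlap each other. The octamer stood in 14 of 18 H2B, 11 of 16 H2A, 1 of 11 H3, 0 of 6 H1 and 0 of 13 H4 promoters, against 554 of 27305 genes (2.03%). A CCAAT box (CCAAT) was found in 54 of 64 members and in 37.0% of all genes, and TATAAA in 43 of 64 members and in 13.0% of all genes. The promoters of H2BC12, the member with the most counts, and of H2BC17, which is described below with the largest differences, are shown with the octamer in capitals.
H2BC12, chr6:27146859-27147108, minus strand: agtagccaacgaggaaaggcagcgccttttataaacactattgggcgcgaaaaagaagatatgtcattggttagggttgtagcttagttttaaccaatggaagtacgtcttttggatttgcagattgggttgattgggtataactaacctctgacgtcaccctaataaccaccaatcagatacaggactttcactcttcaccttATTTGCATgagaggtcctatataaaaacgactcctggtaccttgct
H2BC17, chr6:27893175-27893424, plus strand: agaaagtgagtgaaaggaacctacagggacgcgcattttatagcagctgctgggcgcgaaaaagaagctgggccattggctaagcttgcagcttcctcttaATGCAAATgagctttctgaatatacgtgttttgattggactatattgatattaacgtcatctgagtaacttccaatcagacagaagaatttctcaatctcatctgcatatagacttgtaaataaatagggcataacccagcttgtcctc

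The octamer began 46 bases before the start site in H2BC12 and, on the opposite strand, 149 bases before it in H2BC17.

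The libraries held between 16146718 and 23576469 counts. Differences between libraries of 1 group exceeded sampling noise (chi-square per degree of freedom 16.6 to 52.3), so none was a repeat deposit. IGF2BP3, the target of the shRNA, was at 90.3, 84.1 and 70.3 CPM (counts scaled to a common library size, 1000000, after TMM normalization) in sh-NC and at 60.2, 52.3 and 55.8 CPM in sh-IGF2BP3. The groups did not overlap, and the log2 fold change was −0.54 ± 0.18 (SE). The edgeR test gave an unadjusted p of 0.00896 and an adjusted p of 0.126. The two-sided exact permutation test gave p = 0.1, the smallest that 3 against 3 libraries allow. With the trends of each library with GC content and gene length removed, the log2 fold change was −0.22 (unadjusted p of the edgeR test 0.257). The study also reports the knockdown in HCT116 cells by qPCR and Western blot. Among 8 colon epithelial markers KRT8, KRT18, KRT19, EPCAM, CDH1 and CDX2 had at least 214 counts in every library, while CDH17 had 5 to 34 and VIL1 at most 3, and of 8 immune and stromal markers PTPRC had 1 count in all libraries together and COL1A1 496 to 1024 per library.

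Replication-dependent histone mRNA was scarce in these libraries. The 69 genes together took 1029, 1149 and 981 counts in sh-NC and 1187, 1287 and 965 counts in sh-IGF2BP3, which is 0.00487% to 0.00797% of a library. No count fell on 14 genes in any library, and a further 18 had between 1 and 9 counts over all 6. For a gene without counts, the upper limit of 3 counts corresponds to between 0.124 and 0.196 CPM per library, counting error only. This limit does not cover reads shared with an overlapping gene, as for H2AC7. The libraries were made with a TruSeq RNA kit, and the step that selected RNA is not given in the sources used here. An mRNA without a poly(A) tail is captured poorly where poly(A) selection is used, so low counts here do not give the amount of histone mRNA in the cells.

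**Figure D1:**
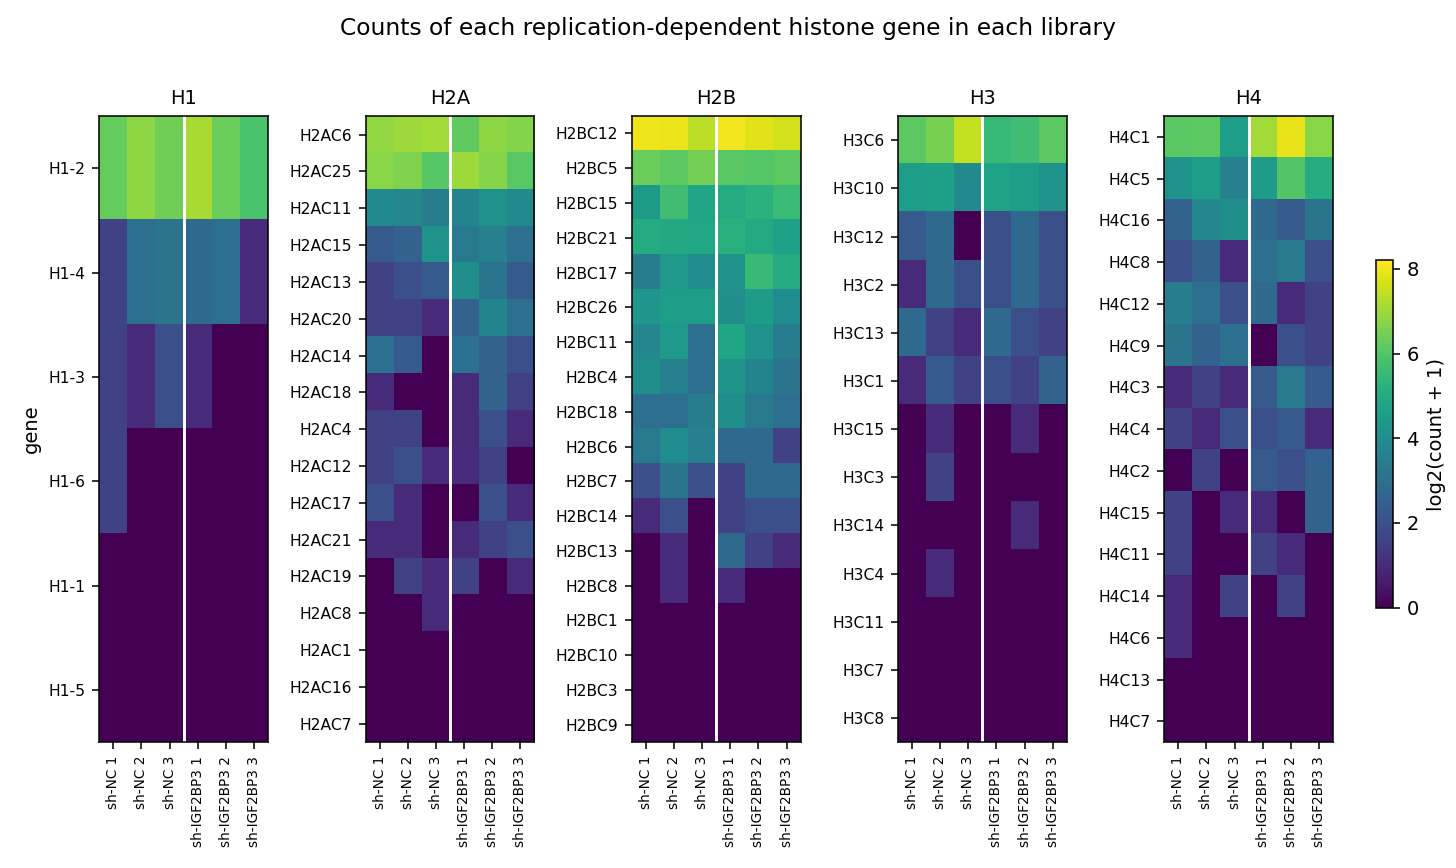
Counts of each of the 69 genes (rows, sorted by mean level within a class) in each of the 6 libraries (columns, sh-NC left of the white line), coloured by log2(count + 1). In each class 1 or 2 genes carry most of the counts, and 14 genes are at 0 in all libraries.

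Few genes carried each class. H2B genes held 42.1% of the members' counts, H2A genes 22.8%, H4 genes 15.4%, H3 genes 10.8% and H1 genes 8.90%. Compared per length, H2BC12 stood highest with 22.6 ± 4.66 FPKM (SD, n = 3) in sh-NC, followed by H4C1 with 6.53 ± 3.00 FPKM and H1-2 with 6.17 ± 0.473 FPKM, and the last pair did not differ beyond their spread. The median of all 69 genes in sh-NC was 0.140 FPKM. The 11 replication-independent histone genes compared here had a median of 12.2 FPKM, and their summed FPKM in sh-NC was 5.37 times that of the 69 genes. FPKM rests on a fixed length per gene, such as 495 bases for H2BC12 and 6134 bases for H3-3B. The ranking and the ratio depend on these lengths, and whether they match the transcripts in these cells was not tested.

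**Figure D2:**
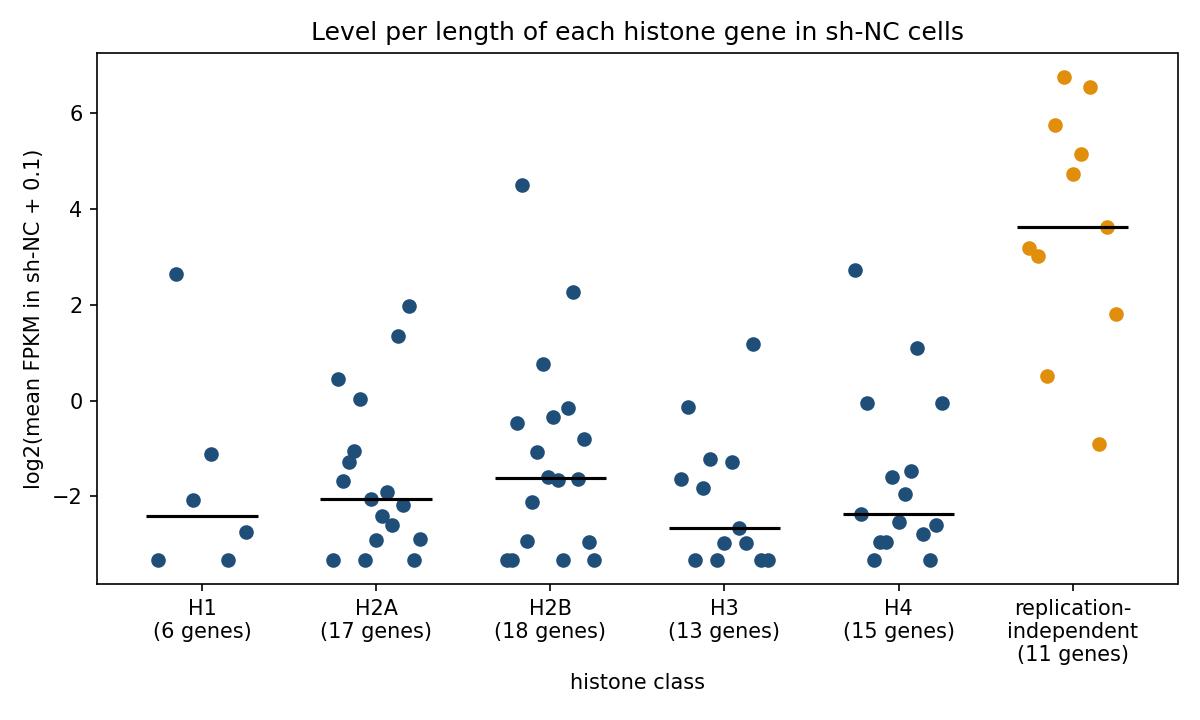
Level per length of each histone gene, as log2 of the mean FPKM of the 3 sh-NC libraries plus 0.1, for the 5 replication-dependent classes (blue) and 11 replication-independent genes (orange), with black lines at the medians. H2BC12 is the highest blue point, and most blue points lie below the orange ones.

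The comparison of sh-IGF2BP3 with sh-NC asked which genes change when IGF2BP3 is reduced. Summed over all 69 genes, the sh-NC libraries stood at 58.1, 47.5 and 50.1 CPM and the sh-IGF2BP3 libraries at 67.9, 84.2 and 54.8 CPM. The groups overlapped, and the ratio of the means was 1.33. H4 was the only one of the 5 classes whose summed CPM did not overlap between groups. It stood at 6.72, 5.29 and 3.47 CPM in sh-NC against 10.75, 22.4 and 9.60 CPM in sh-IGF2BP3, a ratio of 2.76, or 1.97 without the second sh-IGF2BP3 library. In bulk RNA, a different number of cells in S phase and a different amount of histone mRNA per S phase cell cannot be told apart.

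Ratios of the other summed levels were 1.20 for H1, 1.21 for H2A, 1.27 for H2B and 0.767 for H3. Without H4C1 the summed level of all members had a ratio of 1.20. Without H4C1, H4C5 and H2BC17 it was 1.15, at 42.8 to 52.8 CPM in sh-NC and 45.1 to 61.2 CPM in sh-IGF2BP3.

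**Figure D3:**
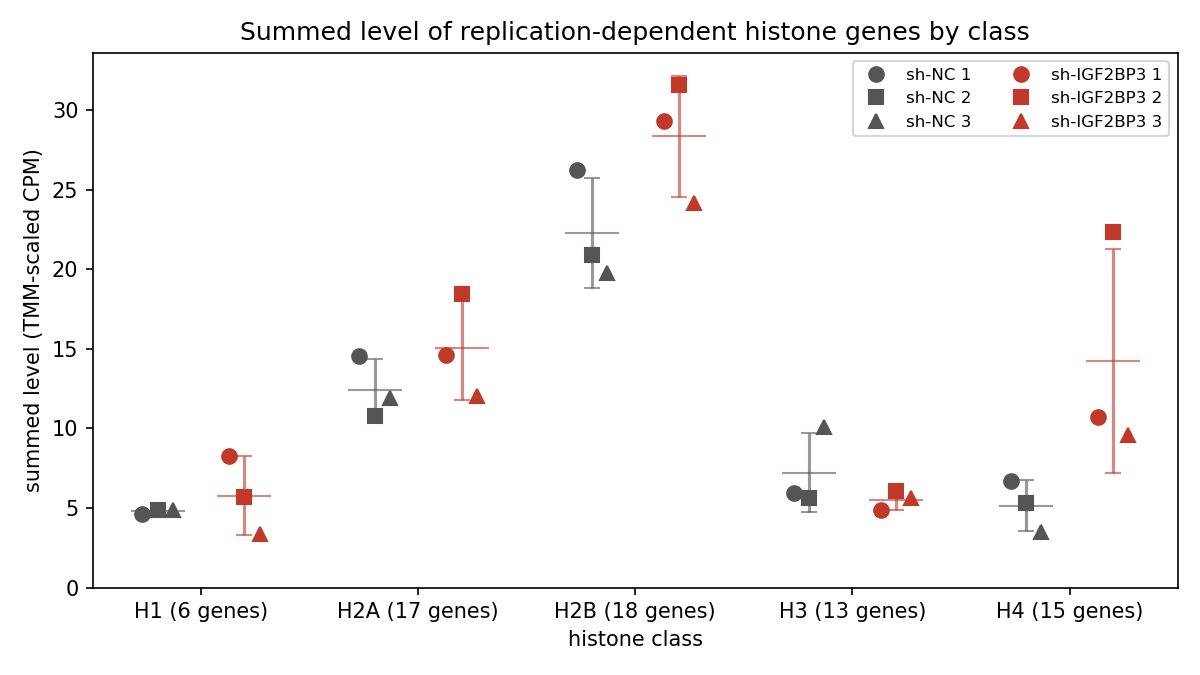
Summed level of the genes of each class in TMM-scaled CPM, with 1 point per library (grey sh-NC, red sh-IGF2BP3), a horizontal line at the group mean and error bars of 1 SD (n = 3). In H4 all red points lie above all grey points, the highest at 22.4 CPM, while the points of the other 4 classes overlap.

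Of the 69 genes, 17 passed the filter on low counts and entered the edgeR quasi-likelihood test with 16753 genes in all. None reached a fold change of 1.5 with an adjusted p under 0.05, and neither did any other gene (0.0% called). At an unadjusted p under 0.05, 3 of 17 members were higher in sh-IGF2BP3 (H4C1, H4C5 and H2BC17), against 13.6% of all tested genes, and 0 of 17 were lower, against 8.54%. The same 3 genes were the members whose libraries did not overlap upward, against 13.2% of tested genes, and 0 did so downward, against 11.0%. Without the second sh-IGF2BP3 library 1 member in place of 3 had an unadjusted p under 0.05, against 7.53% of all genes in that fit in the upward direction. The log2 fold change was above 0 in 14 of the 17 members and in 49.0% of all tested genes, and its median was 0.42 over the members and −0.0145 over all tested genes. DESeq2 gave 7 members an adjusted p and called 1 of them, H4C1, while it called 562 of 13087 genes with an adjusted p higher (4.29%) and 137 lower.

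With GC and length trends removed, the median was 0.35 over the members and 0.01 over all tested genes. Members with an unadjusted p under 0.05 were then 3 of 17, against 6.86% of all genes in the upward direction, and they were H4C1, H4C5 and H2BC15. H2BC17 moved to an unadjusted p of 0.0515 in that edgeR fit. When the GC content of each member was taken from the part of its transcript inside the deposited gene span, the members' median was 0.27.

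**Figure D4:**
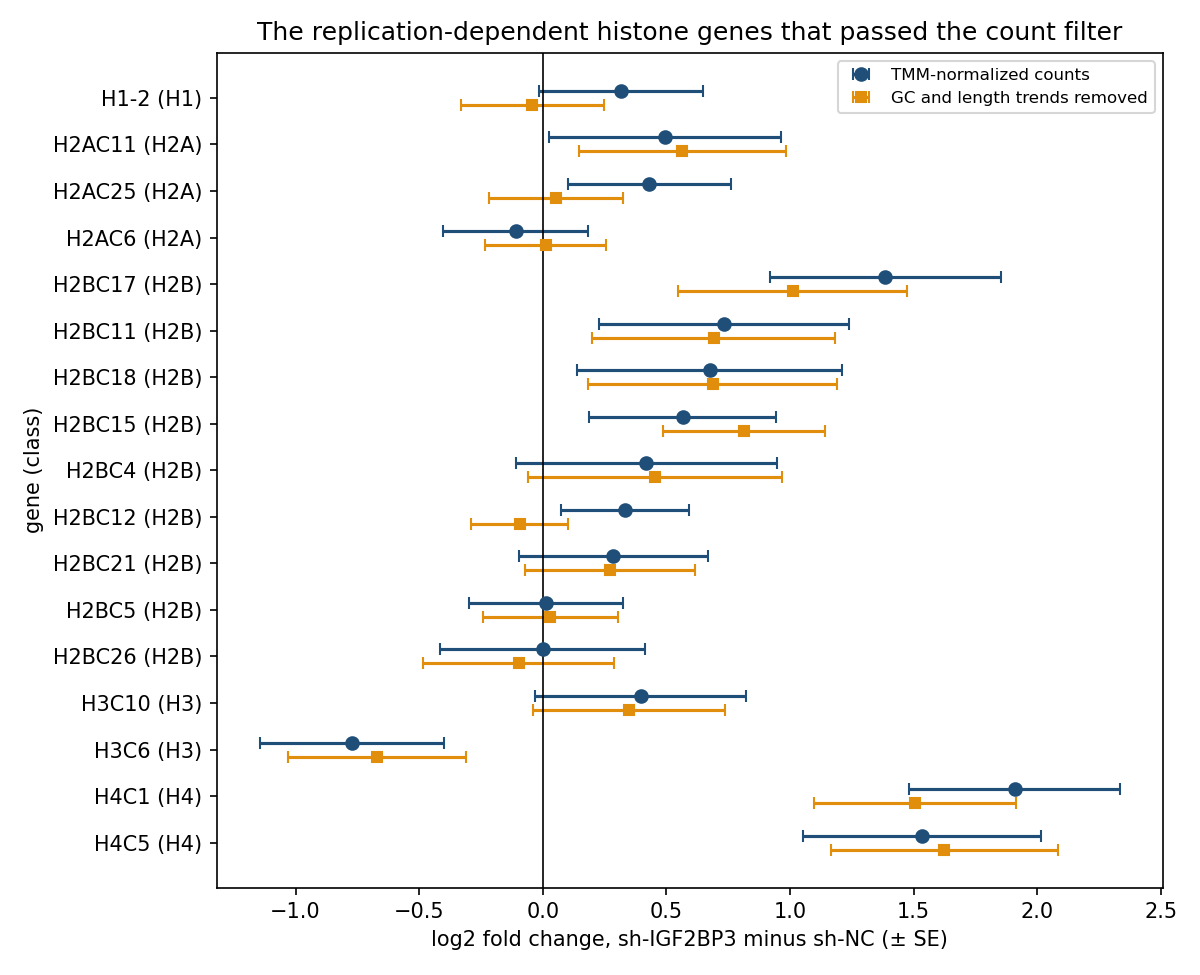
Log2 fold change (sh-IGF2BP3 minus sh-NC) with its SE for the 17 genes that passed the filter, from TMM-normalized counts (circles) and with GC and length trends removed (squares). H4C1, H4C5 and H2BC17 lie furthest to the right at 1.91, 1.53 and 1.39, and H3C6 lies furthest to the left at −0.77.

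H4 histones form a tetramer with H3 at the centre of the nucleosome, and the 15 H4 genes encode nearly the same protein. H4C1 (chr6:26021649-26022050, plus strand) had 67, 70 and 23 counts in sh-NC and 133, 243 and 106 counts in sh-IGF2BP3. As levels these were 3.78, 2.89 and 1.18 CPM against 7.61, 15.9 and 6.02 CPM. All sh-IGF2BP3 libraries stood above all sh-NC libraries, the second sh-IGF2BP3 library by far the highest and the third sh-NC library the lowest. The log2 fold change was 1.91 ± 0.43 (SE) with an adjusted p of 0.103 (edgeR) and 0.00317 (DESeq2). It was 1.39 without the second sh-IGF2BP3 library, and 1.505 (edgeR adjusted p 0.415) with GC and length trends removed. H4C1 ranked 48th by p and 22nd by upward fold change among the 16753 tested genes.

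H4C5 (chr6:26204610-26205021, plus strand) was at 0.959, 0.950 and 0.562 CPM in sh-NC and at 1.26, 4.12 and 1.87 CPM in sh-IGF2BP3. Its groups did not overlap either, and the second sh-IGF2BP3 library was again the highest. The log2 fold change was 1.53 ± 0.48 (SE) with an adjusted p of 0.118 (edgeR), and 0.92 (adjusted p 0.475) without the second sh-IGF2BP3 library. With GC and length trends removed it was 1.62 (edgeR adjusted p 0.415), or 1.32 with the GC content inside the deposited span. The longest run of coding bases shared with another H4 gene was 32 bases for H4C1 and 35 bases for H4C5. H4C11 and H4C12, and H4C14 and H4C15, have identical coding sequences, so reads inside them cannot be assigned to 1 gene of the pair.

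The other 13 H4 genes stayed below the filter, with at most 52 counts over all libraries. H4C16, the third by level, had 5, 13 and 16 counts in sh-NC and 6, 4 and 8 counts in sh-IGF2BP3. H4C3 had 1, 2 and 1 counts against 4, 9 and 4, and H4C2 had 0, 2 and 0 against 4, 3 and 5. H4C9 went the other way, from 8, 5 and 7 counts to 0, 3 and 2. H4C13 and H4C7 had no counts. Without H4C1 and H4C5, the summed level of H4 was 1.45 to 1.98 CPM in sh-NC and 1.70 to 2.36 CPM in sh-IGF2BP3, and the groups overlapped.

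H2B pairs with H2A on the faces of the nucleosome. H2BC17 was the H2B gene with the smallest p, with 10, 20 and 15 counts in sh-NC and 17, 45 and 32 counts in sh-IGF2BP3. In CPM it was at 0.564, 0.826 and 0.766 against 0.972, 2.94 and 1.82. The groups did not overlap, and the log2 fold change was 1.39 ± 0.47 (SE) with an adjusted p of 0.127 (edgeR), or 0.95 (adjusted p 0.477) without the second sh-IGF2BP3 library. With GC and length trends removed it was 1.01 (edgeR adjusted p 0.48). H2BC17 shares a run of 90 coding bases with H2BC12, so reads within that run could come from either gene.

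H2BC12, the most abundant member, was at 14.3, 10.2 and 8.48 CPM in sh-NC and at 15.3, 14.98 and 11.4 CPM in sh-IGF2BP3. The groups overlapped, and the log2 fold change was 0.33 ± 0.26 (SE, edgeR adjusted p 0.464) and −0.09 with GC and length trends removed. H2BC5 was at 4.52, 2.85 and 4.55 CPM against 3.83, 4.19 and 3.98 CPM, with a log2 fold change of 0.014 ± 0.31 (SE). Its groups lay within the same range. H2BC15 was at 1.19, 2.07 and 1.38 CPM against 1.83, 2.42 and 2.67 CPM. Its log2 fold change was 0.57 ± 0.38 (SE, edgeR adjusted p 0.387), and 0.81 with GC and length trends removed.

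The remaining tested H2B genes were H2BC21, H2BC26, H2BC11, H2BC4 and H2BC18, with log2 fold changes from −0.00081 (H2BC26) to 0.73 (H2BC11) and overlapping groups. Of the 9 H2B genes below the filter, H2BC6 had 9, 15 and 11 counts in sh-NC and 6, 6 and 2 in sh-IGF2BP3, and H2BC13 had 0, 1 and 0 against 6, 2 and 1. H2BC1, H2BC3, H2BC9 and H2BC10 had no counts. H2BC1 lies wholly within another coding gene on the same strand, which had no counts either. The gene spans of H2BC5 and H2BC18, 13228 and 29685 bases, overlap other genes on both strands. The fixed lengths behind their FPKM are only 861 and 1798 bases. Whether counted bases are shared was not tested, and the use of strand in counting is not given in the sources used here.

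The 3 tested H2A genes had log2 fold changes from −0.11 to 0.50. H2AC6 was at 6.49, 5.29 and 6.74 CPM in sh-NC and at 4.17, 7.26 and 5.74 CPM in sh-IGF2BP3, with a log2 fold change of −0.11 ± 0.29 (SE). The sh-NC values lay inside the sh-IGF2BP3 range. H2AC25 was at 5.93, 4.01 and 3.37 CPM against 7.32, 6.74 and 3.86 CPM, with a log2 fold change of 0.43 ± 0.33 (SE, edgeR adjusted p 0.455) and 0.054 with GC and length trends removed. H2AC11 was at 0.790, 0.537 and 0.511 CPM against 0.686, 1.11 and 0.795 CPM, and its log2 fold change was 0.50 ± 0.47 (SE). With GC and length trends removed it was 0.56, or 0.081 with the GC content inside the deposited span. The groups overlapped for H2AC25 and for H2AC11.

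Of the 14 H2A genes below the filter, H2AC13 had 2, 3 and 4 counts in sh-NC and 16, 8 and 4 in sh-IGF2BP3, and H2AC20 had 2, 2 and 1 against 5, 12 and 7. H2AC13 shares 332 coding bases with H2AC14, which had 7, 4 and 0 counts against 7, 5 and 3. H2AC18 and H2AC21 were also higher without overlap in CPM, on 9 and 8 counts over all libraries. In counts their groups tied at 1. On the opposite strand, 76 of the 497 bases of H2AC21 overlap BOLA1, which had 57, 129 and 83 counts against 222, 123 and 86. Whether reads of BOLA1 were counted for H2AC21 was not tested. H2AC1, H2AC7 and H2AC16 had no counts. H2AC7 lies wholly within another coding gene on the same strand, as does H3C4. That gene took 4, 2 and 3 counts in sh-NC and 6, 8 and 0 in sh-IGF2BP3. How reads shared by overlapping genes were counted is not given in the sources used here, so absence of H2AC7 mRNA cannot be read from its 0.

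H3 carries the tail residues whose methylation and acetylation mark chromatin states. H3C6 had 70, 90 and 177 counts in sh-NC and 44, 51 and 69 counts in sh-IGF2BP3. As levels it was at 3.95, 3.72 and 9.04 CPM against 2.52, 3.34 and 3.92 CPM, so that the third sh-NC library stood apart and the groups overlapped. The log2 fold change was −0.77 ± 0.37 (SE, edgeR adjusted p 0.237), the most negative of the 17 members, and −0.25 without the third sh-NC library. H3C10 was at 1.30, 0.991 and 0.715 CPM against 1.49, 1.504 and 0.965 CPM, with a log2 fold change of 0.40 ± 0.43 (SE). Of the 11 H3 genes below the filter, H3C12 had 4, 6 and 0 counts against 3, 6 and 3, and H3C7, H3C8 and H3C11 had none.

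Linker histone H1 rested on 1 gene. H1-2 was at 4.29, 4.54 and 4.34 CPM in sh-NC and at 7.89, 5.23 and 3.29 CPM in sh-IGF2BP3. The sh-NC libraries were close together and lay inside the wider range of the sh-IGF2BP3 libraries. The log2 fold change was 0.32 ± 0.33 (SE, edgeR adjusted p 0.592), and −0.043 with GC and length trends removed. H1-4 had 2, 7 and 8 counts against 6, 7 and 1, H1-3 had 2, 1 and 3 against 1, 0 and 0, H1-6 had 2 counts in the first sh-NC library alone, and H1-1 and H1-5 had no counts.

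Over all classes, 20 members below the filter had at least 10 counts in total. The libraries of 5 of them did not overlap upward, against 4.47% of the 7603 genes below the filter with as many counts, and 2 of them did so downward, against 7.64%. The counts behind these values are single digits in most libraries, and no test was run on them. For H2AC13 and H2BC13 the lowest sh-IGF2BP3 count equalled the highest sh-NC count, at 4 and 1. Their separation in CPM thus rests on the scaling to library size.

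Gene models of the members were divided by genomic span, introns included. There were 51 short ones of at most 800 bases and 18 long ones with spans of 1250 to 29685 bases. This limit was chosen after the spans were seen. Span is not transcript length. H2BC4, a long gene here with a span of 9054 bases, has a fixed length of 723 bases behind its FPKM. The stem-loop was located in 15 of the 18 long genes, whose spans ran from 430 (H2BC6) to 29196 bases (H2BC18) past it. The 51 short genes summed to 28.4, 23.2 and 18.9 CPM in sh-NC and 38.9, 51.0 and 28.8 CPM in sh-IGF2BP3, a ratio of 1.69 with groups that did not overlap. Without H4C1, H4C5 and H2BC17 the ratio was 1.31 and the groups overlapped. The 18 long genes summed to 24.3 to 31.3 CPM in sh-NC and 26.01 to 33.2 CPM in sh-IGF2BP3, a ratio of 1.03. H3C6, H2AC6, H2AC25 and H2BC5 are long genes, and H4C1, H4C5, H2BC17, H2BC12 and H1-2 are short ones.

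Libraries differed in the direction of many members at once. Among the 17 tested members the first and the second sh-IGF2BP3 library each held the highest value for 7, while the third sh-NC library held the lowest value for 8. The median deviation of the members from their own mean was 0.025, −0.31 and −0.41 on the log2 scale in sh-NC and 0.31, 0.37 and −0.098 in sh-IGF2BP3. The corresponding medians over all tested genes lay between −0.012 and 0.0359.

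The RNAs that carry no poly(A) tail were set beside the histone genes in the same libraries. Of 27 such RNAs in the list 9 had no counts and 5 were tested, of which 2 were higher at an unadjusted p under 0.05 and 0 lower. Over all tested genes 13.6% were higher and 8.54% lower at this p, which is the background for each list below. RN7SL1, the RNA of the signal recognition particle, was at 8.24, 5.87 and 9.04 CPM in sh-NC and at 11.4, 36.6 and 11.98 CPM in sh-IGF2BP3 (log2 fold change 1.37 ± 0.38, SE, edgeR adjusted p 0.103). RMRP, the RNA of RNase MRP, was at 0.339, 0.537 and 0.613 CPM against 0.801, 3.27 and 0.852 CPM (log2 fold change 1.69 ± 0.58, SE, edgeR adjusted p 0.13). The second sh-IGF2BP3 library was the highest for both, as it was for H4C1, H4C5 and H2BC17. The other 3 tested RNAs, SCARNA9, SNORD17 and SNORA73B, had overlapping groups and log2 fold changes of 0.90, 0.49 and −0.09. Added up, the 27 RNAs were at 17.1 to 20.9 CPM in sh-NC, and 20.4, 55.4 and 25.4 CPM in sh-IGF2BP3. The part of RNA selection in the histone values was not tested.

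All 18 S phase markers of the list had a log2 fold change above 0 (median 0.35), as did 49.0% of all tested genes. At an unadjusted p under 0.05, 6 of the 18 were higher, against 13.6% of all tested genes, and 0 passed the adjusted threshold (edgeR). With GC and length trends removed 4 were higher at this p, against 6.86%. Together they reached 3888, 3358 and 2169 CPM in sh-NC and 3922, 4402 and 4424 CPM in sh-IGF2BP3. The third sh-NC library was the lowest, as it was for 8 of the 17 tested members, among them H4C1 and H4C5 but not H2BC17. That library held the highest value for 2 of the 17. CDT1, which licenses replication origins, had a log2 fold change of 0.94 ± 0.25 (SE, edgeR adjusted p 0.103) and 0.34 with GC and length trends removed. MCM2, a subunit of the replicative helicase, had 0.88 ± 0.26 (SE, edgeR adjusted p 0.111), and MCM7, the most abundant of the list, 0.58 ± 0.23 (SE, edgeR adjusted p 0.157). The part of the share of cells in S phase in the histone values was not tested.

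**Figure D5:**
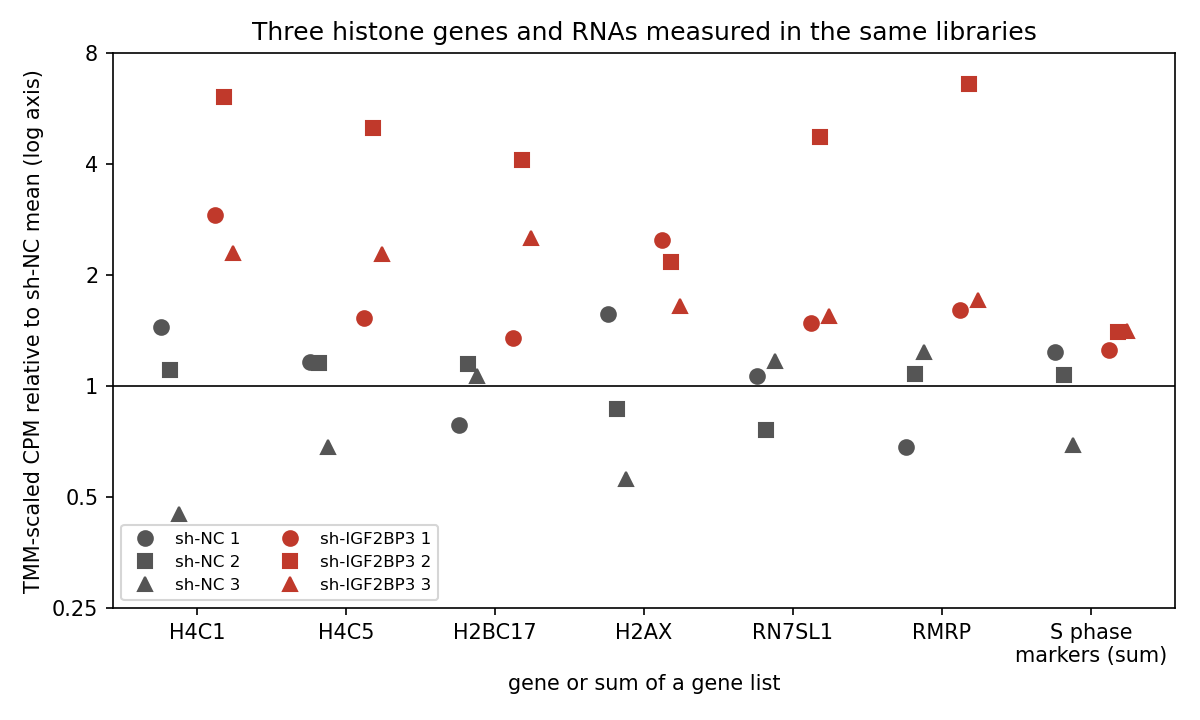
TMM-scaled CPM of H4C1, H4C5, H2BC17, H2AX, RN7SL1, RMRP and the sum of 18 S phase markers in each library, relative to the mean of the 3 sh-NC libraries (log axis). The second sh-IGF2BP3 library (red squares) is the highest for the 3 histone genes, RN7SL1 and RMRP, and for the S phase markers the red points lie together.

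Genes that act on histone mRNA were listed by role. Of 19 genes for transcription and 3′ processing of histone mRNA, 3 were higher and 2 lower at an unadjusted p under 0.05, against 13.6% and 8.54% of all tested genes, and 0 passed the adjusted threshold (edgeR). SLBP was at 118.2, 99.4 and 65.6 CPM in sh-NC and at 118.0, 132.6 and 120.5 CPM in sh-IGF2BP3 (log2 fold change 0.39 ± 0.21, SE, adjusted p 0.293 by edgeR). LSM10 had the smallest p of the list, with 18.7, 16.3 and 11.2 CPM against 27.6, 31.7 and 19.7 CPM and a log2 fold change of 0.77 ± 0.25 (SE, edgeR adjusted p 0.123), or 0.38 with GC and length trends removed. NPAT, LSM11 and ZNF473, the last a zinc finger protein of the U7 snRNP pathway, had log2 fold changes of −0.33, −0.31 and −0.21 with overlapping groups.

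SRRT, which links the cap-binding complex to 3′ processing, had a log2 fold change of 0.56 ± 0.21 (SE, edgeR adjusted p 0.147). POU2F1, whose product binds the octamer shown above, had −0.52 ± 0.20 (SE, edgeR adjusted p 0.151), and −0.15 with GC and length trends removed. It was at 71.6, 89.5 and 96.7 CPM against 49.1, 60.7 and 70.0 CPM, without overlap.

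Of 10 genes for the decay of histone mRNA, 2 were higher and 4 lower at an unadjusted p under 0.05 (edgeR, 0 adjusted). XRN1, the cytoplasmic 5′ to 3′ exonuclease, had a log2 fold change of −0.79 ± 0.21 (SE, edgeR adjusted p 0.103), and −0.35 with GC and length trends removed. LSM4, a subunit of the LSM ring that binds 3′ ends, had 0.83 ± 0.24 (SE, edgeR adjusted p 0.108), and XRN2, the most abundant of the list, had −0.12 ± 0.19 (SE). The median of the list was −0.17 and 0.042 with GC and length trends removed.

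Of 18 histone chaperones, 4 were higher and 1 lower at an unadjusted p under 0.05 (edgeR, 0 adjusted), with a median of 0.18. CHAF1A, a subunit of the complex that deposits H3 and H4 on new DNA, had a log2 fold change of 0.75 ± 0.24 (SE, edgeR adjusted p 0.12). CABIN1, part of the complex that deposits H3.3, had 0.61 ± 0.20 (SE, edgeR adjusted p 0.126), and SSRP1, a FACT subunit and the most abundant of the list, had 0.37 ± 0.21 (SE).

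Of 14 genes for the polyadenylation of ordinary mRNAs, 3 were higher and 1 lower at an unadjusted p under 0.05 (edgeR, 0 adjusted), with a median of −0.020. PABPN1, the nuclear poly(A)-binding protein, had a log2 fold change of 1.08 ± 0.26 (SE, edgeR adjusted p 0.103), CPSF1 had 0.60 ± 0.20 (SE), and PABPC1, the most abundant of the list, had −0.32 ± 0.20 (SE).

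The replication-independent histone genes gave a comparison within the same protein families. Of 11 genes 10 were tested, 8 had a log2 fold change above 0, 5 were higher at an unadjusted p under 0.05 and 0 lower, and the median was 0.47, beside the 0.42 of the replication-dependent genes. H2AX, the variant phosphorylated at DNA breaks, holds the stem-loop motif and so does not stand for genes without it. It was at 132.9, 73.6 and 47.3 CPM in sh-NC and at 210.6, 184.1 and 139.8 CPM in sh-IGF2BP3. The groups did not overlap, and its log2 fold change was 1.08 ± 0.29 (SE, edgeR adjusted p 0.103), or 0.43 with GC and length trends removed. H2AZ1 was at 295.3, 240.2 and 182.1 CPM against 378.7, 443.4 and 280.5 CPM (log2 fold change 0.62 ± 0.22, SE, edgeR adjusted p 0.141). H3-3B, the most abundant, had a log2 fold change of 0.43 ± 0.23 (SE). Whether the fold changes of replication-dependent and replication-independent genes differ was not tested.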

How the data were processed

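RNA from 3 sh-NC and 3 sh-IGF2BP3 libraries was measured. The authors deposited raw counts per gene and FPKM values on GRCh38, and the submitters' processing notes name CASAVA. Aligner, counting tool and strand use are not given in the sources used here. Each FPKM value equals the count divided by the library total and by a fixed gene length (largest relative spread 2.10e-13). The count model was edgeR 4.0.16 in R 4.3.3 (filterByExpr defaults, TMM, quasi-likelihood test, two-sided, Benjamini-Hochberg adjustment over 16753 genes), with limma 3.58.1 and DESeq2 1.42.0 as alternatives and Python 3.11.15 for sequences. Genes were called at an adjusted p under 0.05 with more than a 1.5-fold difference. SE is the log2 fold change divided by the square root of F. The longest GENCODE 29 transcript gave each gene's GC content (96.9% of tested genes), and GC and length trends were splines with 5 degrees of freedom. The fits were tested on simulated data with known changes. Of these, edgeR recovered 55.8% to 76.1% at 2-fold and 97.8% to 100% at 3-fold, with 3 to 8 false calls. Recovery was scored only for genes with a mean of at least 5 CPM. Most tested members lie below that, among them H4C5 (1.621 CPM) and H2BC17 (1.315 CPM), so it does not cover them.

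In each class the 3 members with the highest mean CPM and the 2 tested members with the smallest p were named. From the list of histone mRNA transcription and 3′ processing, the 3 genes with the smallest p and SLBP, NPAT, LSM10, LSM11 and ZNF473 were named, and from the other lists the 2 with the smallest p and the most abundant. Other members were named after their values were seen. One gene of the replication-independent list is not reported here and is left out of that list's values. Members and lists were chosen with earlier results of these data known. Alternatives were RLE and upper-quartile normalization, other count filters, DESeq2, limma on log2 FPKM, the replicate number as a block and each library left out. The search limits for promoters and stem-loops and the GC content inside the deposited span were added after the data were seen.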

Additional observations from a re-analysis of the deposited data

How the results depend on the processing

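The median log2 fold change of the members stayed above 0 in every setting run, from 0.25 to 0.57 with 1 library left out and 0.25 with limma on log2(FPKM + 1), and the ratio of summed levels lay between 1.19 and 1.45 with 1 library left out. Members called higher were 0 in the edgeR test, 2 with no filter on low counts (H4C1 and H4C5, where 687 of 36335 genes were called higher, 1.89%), 1 with DESeq2 and 0 to 2 with 1 library left out. The 2, of 19 members in that fit, came without the first sh-NC library (H4C1 and H4C5), where 1739 of 17379 genes were called higher. Without the third sh-IGF2BP3 library it was 1 of 19 members (H4C1), where 214 of 17399 genes were called higher. Members higher at an unadjusted p under 0.05 were 8 of 55 with no filter (7.57% of all genes in that fit), 5 of 55 with DESeq2 (6.58%), 9 of 55 with limma on log2(FPKM + 0.1) (5.23%) and 1 to 4 with 1 library left out (7.02% to 17.7%). Members lower at this p were 1 of 17 with upper-quartile normalization (11.4% of all genes in that fit) and 1 of 55 with no filter (5.4%). They were 1 of 14 under the filter of 10 counts per library (9.69%) and 1 of 55 with limma on log2(FPKM + 0.1) (6.12%). With 1 library left out, 0 to 1 members were lower (3.81% to 14.2%).

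Some small differences changed sign. H1-2 was at −0.043 with both GC settings and between −0.044 and 0.57 with 1 library left out. H2AC6 was at 0.012 and 0.013 with the GC settings and between −0.31 and 0.077 with 1 library left out. H2BC12 was at −0.093 with both GC settings. H2BC5 was at −0.046 with upper-quartile normalization, −0.0043 with at least 10 counts, −0.035 with both FPKM settings and between −0.18 and 0.12 with 1 library left out. H2BC26 was at 0.013 with no filter, 0.014 with DESeq2 and between −0.26 and 0.13 with 1 library left out. The cause was not tested.

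The labels give same-numbered libraries only a shared number. The study calls them pairs without saying what a pair shares. Their correlations of deviations were −0.284, −0.186 and −0.043. With the replicate block, 0 members were called, and neither was any other gene (0.0%). At an unadjusted p under 0.05 (edgeR), 3 of 17 members were higher, against 12.6% of all genes in that fit. The members' median was 0.42. Counts under about 10 per library limit what can be seen for the 52 genes below the filter.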
